A study of Mus musculus with 3 samples.

Results

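The mesothelial lining markers are 10 genes that are typical of the mesothelium: Msln, Upk3b, Upk1b, Wt1, Bnc1, Lrrn4, Krt8, Krt18, Krt19 and Gpm6a. They were taken by name from the arrays, where 13 probes carry these names, out of 37324 genes and 56605 probes in all. Their expression levels were compared among stromal vascular cells (SVC), small proliferative adipocytes (SPA) and mature white adipocytes (MWA, labelled MA in the records). The cells were released by collagenase from epididymal fat of male C57/BL mice recorded as 20 weeks old, with no further treatment named. SVC were the lower phase of a brief spin at 9 g, and the cells that floated were spun again (226 g, 3 min) to part the floating MWA from the sedimented SPA. Before RNA extraction, the SVC and SPA were grown in DMEM until 90% confluent, whereas the paper describes no culture of MWA. The record of the MWA sample gives the same 90% confluence, so whether MWA were cultured is unclear. The MWA sample also carries another date in its title. Therefore fraction, date and any difference in culture cannot be told apart in any comparison with MWA. Each fraction was measured with 1 single-colour Agilent array, so no p-value can be given, and no difference below could be set against the spread between animals or cultures. How many mice were pooled for the arrays is not given in the sources used here.

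The mesothelium is a flat, simple epithelium that covers visceral organs and the surface of visceral fat depots, including the epididymal fat pad. It combines epithelial features, such as simple keratins and apical membrane proteins, with an origin from mesoderm that is marked by the transcription factor WT1. When mesothelial cells are cultured they can lose epithelial features and take on a fibroblast-like shape, a change known as mesothelial-to-mesenchymal transition. In the Wt1 lineage of visceral fat, mesothelial cells lie beside progenitors of adipocytes, so these genes are often read when cells of epididymal fat are separated.

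For 6 of the 10 genes RefSeq promoters of the GRCm38.p6 build were at hand, and the 250 bases before the start site are printed for 4 of them. Upk3b, Lrrn4 and Gpm6a are shown because their signals moved together over the 3 fractions, and Bnc1 is shown because it fell as far from SVC to SPA but stayed low in MWA. The windows lie at chr5:136038246-136038495 on the plus strand (Upk3b), chr2:132880863-132881112 on the minus strand (Lrrn4), chr8:54779184-54779433 on the plus strand (the first of 2 Gpm6a promoters) and chr7:81992300-81992549 on the minus strand (Bnc1). They are written 5′ to 3′ on the strand of the gene, and capitals mark the matches to the motifs described after them.
Upk3b: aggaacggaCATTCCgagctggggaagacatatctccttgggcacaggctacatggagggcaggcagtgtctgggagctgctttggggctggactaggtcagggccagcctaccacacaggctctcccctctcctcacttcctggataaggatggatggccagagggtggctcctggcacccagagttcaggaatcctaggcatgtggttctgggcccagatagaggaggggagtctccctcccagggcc
Lrrn4: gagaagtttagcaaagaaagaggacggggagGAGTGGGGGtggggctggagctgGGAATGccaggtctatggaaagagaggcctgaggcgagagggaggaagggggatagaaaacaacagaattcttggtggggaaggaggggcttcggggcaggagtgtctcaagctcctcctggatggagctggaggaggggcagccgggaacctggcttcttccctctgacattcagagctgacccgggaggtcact
Gpm6a: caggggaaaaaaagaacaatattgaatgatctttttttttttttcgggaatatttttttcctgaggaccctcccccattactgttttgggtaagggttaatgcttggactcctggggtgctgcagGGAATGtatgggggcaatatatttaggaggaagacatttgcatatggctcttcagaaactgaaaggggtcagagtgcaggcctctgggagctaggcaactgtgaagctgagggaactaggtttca
Bnc1: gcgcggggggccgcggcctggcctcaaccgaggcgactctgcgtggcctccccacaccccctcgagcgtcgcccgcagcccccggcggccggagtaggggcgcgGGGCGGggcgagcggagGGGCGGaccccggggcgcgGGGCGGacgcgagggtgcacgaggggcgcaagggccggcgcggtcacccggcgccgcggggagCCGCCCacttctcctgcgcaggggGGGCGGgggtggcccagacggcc

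Motifs were searched on both strands as GGAATG (TEAD), GNGTGGGNG (WT1 and EGR type), GGGCGG (SP1) and TATAAA (the TATA box), and as TGA and TCA around any 1 base (the AP-1 motif). GGAATG was found once each in the printed windows of Upk3b, Lrrn4 and Gpm6a. It was absent from the second Gpm6a promoter and from the windows of Bnc1, Krt8 and Krt18. It was present in 12.6% of the 32851 promoter windows of all genes. In Upk3b the match lies on the opposite strand, 241 to 236 bases before the start, in Lrrn4 196 to 191 bases before it and in Gpm6a 125 to 120 bases before it. GNGTGGGNG was found once, in Lrrn4, against 12.7% of all windows. GGGCGG was found 5 times in Bnc1 and in no other searched window of the 6 genes, against 32.7% of all windows. Of the bases of the Bnc1 window, 83.6% were G or C against a median of 52.4% over all windows. The 4 members without a promoter entry were not searched. The only TATAAA match lay in the second Gpm6a promoter, against 12.4% of all windows, and the AP-1 motif was found in none, against 6.75%. A match is a stretch of letters and not a measured binding site. The motifs were chosen with the array results known, and 7 promoters of 6 genes are too few to set against the background.

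All 13 probes were well above background on all 3 arrays, so every ratio of a member is a measured value and not a bound. The array positions of the probes are given in the mm9 build, and each probe is 60 bases long. The raw signal of a member probe was between 1.85 and 464 times its local background. The error model of Agilent Feature Extraction gave an error of 10% to 16% for their processed signals. The largest error belonged to Gpm6a in SPA, which also had the smallest signal over background. Levels are given as the processed signal and as log2 of that signal relative to the 75th percentile of its array, with percentiles of 430 (SVC), 439 (SPA) and 366 (MWA). Of the spots that are not controls, 58.6% (SVC), 61.4% (SPA) and 61.3% (MWA) were bright enough to be called well above background. The median SD of the log2 signal over spots of the same probe was 0.04 for SVC, 0.04 for SPA and 0.05 for MWA, which covers the error within an array only.

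Expression of all 10 mesothelial markers was lower in SPA than in SVC. The decrease was at least 5-fold in 7 of them, among them Lrrn4 (8.14-fold), Bnc1 (7.67-fold) and Upk3b (7.51-fold), and was smallest in Wt1 (1.87-fold). With another background correction (normexp) 2 of the 7 remained, Msln and Upk1b, and the order of the genes by size of decrease also depended on this choice. In RNA of a whole fraction, fewer mesothelial cells and less of these transcripts in each cell cannot be told apart. From SPA to MWA the markers parted. Msln, Upk3b, Krt19, Gpm6a and Lrrn4 were 6.26-fold to 9.33-fold higher in MWA, whereas Upk1b, Wt1, Bnc1, Krt8 and Krt18 were no higher. As a result, the first 5 genes had similar levels in SVC and MWA, within 1.49-fold of each other, and the other 5 were 2.06-fold to 9.04-fold lower in MWA than in SVC.

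**Figure D1:**
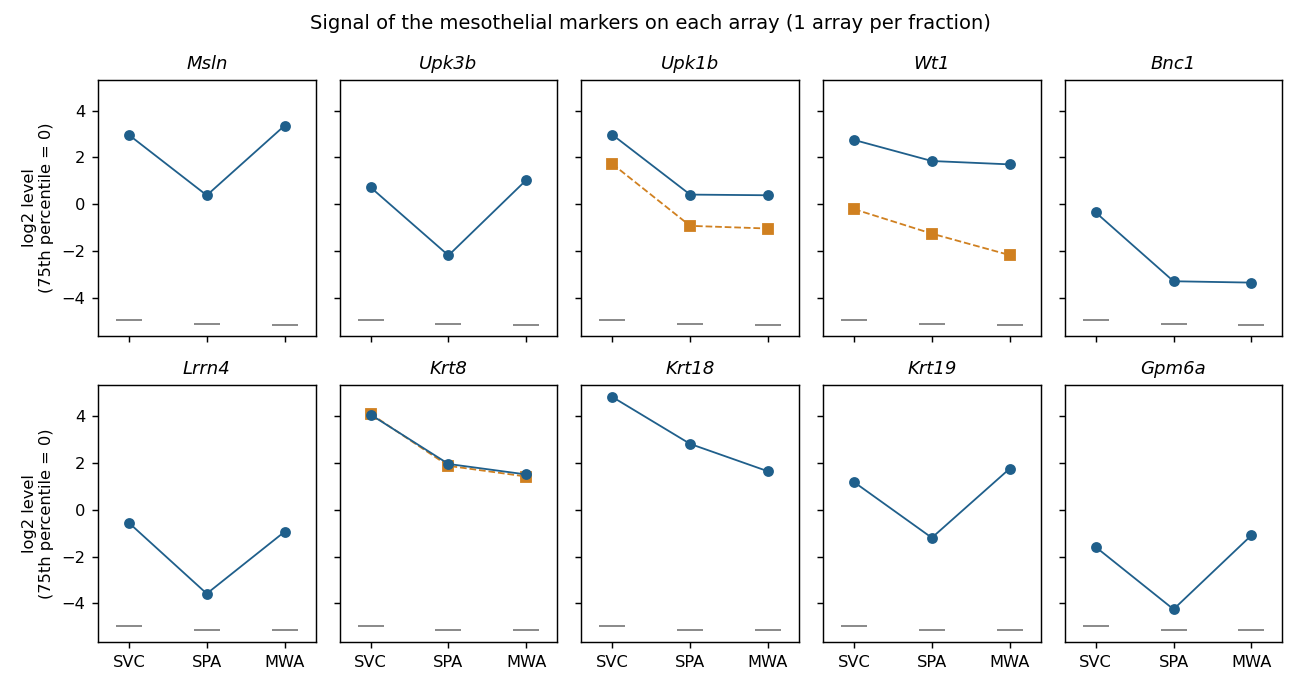
Log2 level (75th percentile of the array set to 0) of each member in SVC, SPA and MWA, 1 array per fraction. Circles with solid lines are the brightest probe, squares with dashed lines the other probe of Upk1b, Wt1 and Krt8, and grey dashes the floor of each array, below which no probe was well above background. Msln, Upk3b, Lrrn4, Krt19 and Gpm6a dip in SPA alone, and the other 5 genes stay low in MWA.

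Of the proteins at the mesothelial surface, mesothelin is a glycoprotein anchored in the apical membrane that binds the mucin MUC16. The probe of Msln (chr17:25885569-25885628, minus strand) had processed signals of 3344 in SVC, 571 in SPA and 3748 in MWA. SPA was thus the low fraction, 5.98-fold below SVC and 7.88-fold below MWA, while SVC and MWA differed by 1.32-fold. UPK3B is a membrane protein of the uroplakin family, which was first described in the urothelium. Its probe (chr5:136520522-136520581, plus strand) gave 708 in SVC, 96.2 in SPA and 748 in MWA. It fell 7.51-fold from SVC to SPA and rose 9.33-fold from SPA to MWA. On the MWA array the Upk3b spot had an outlying local background, and without such spots Upk3b has no value in MWA.

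Upk1b encodes a uroplakin of the tetraspanin family and was read by 2 probes. The brighter (chr16:38773592-38773651, minus strand) had signals of 3367 in SVC, 583 in SPA and 477 in MWA. Another Upk1b probe (chr16:38773859-38773918, minus strand) had 1417, 231 and 178 in the same order. Both probes fell from SVC to SPA, 5.89-fold at the brighter and 6.25-fold at the other. Unlike Upk3b, Upk1b showed no rise in MWA, and its log2 ratio of MWA over SPA was -0.03 and -0.11 at these probes. LRRN4 is a transmembrane protein with leucine-rich repeats. The signals of Lrrn4 (chr2:132694490-132694549, minus strand) were 292 in SVC, 36.6 in SPA and 191 in MWA. This was an 8.14-fold decrease from SVC to SPA, and the level in MWA was 1.30-fold below that in SVC. Gpm6a encodes a membrane glycoprotein of the proteolipid protein family that is abundant in neurons. Its probe (chr8:56145539-56145598, plus strand) had 143 in SVC, 23.0 in SPA and 171 in MWA, a 6.32-fold decrease followed by an 8.93-fold increase. In SPA this raw signal was 1.85 times its local background, so the low point of Gpm6a is the least certain of the 10 genes.

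The keratins form the intermediate filaments of simple epithelia, in which the type II keratin 8 pairs with the type I keratins 18 and 19. Krt18 (chr15:101862341-101862400, plus strand) had a processed signal of 12164 in SVC, 3091 in SPA and 1144 in MWA. Its level therefore declined in both steps, 4.01-fold from SVC to SPA and a further 2.25-fold from SPA to MWA. Krt8 was read by 2 probes, at chr15:101827214-101827273 and chr15:101827138-101827197 on the minus strand. The first gave 7202 in SVC, 1706 in SPA and 1041 in MWA. From the other the signals were 7384, 1613 and 980 in the same order. SPA was 4.31-fold lower than SVC at the first probe and 4.67-fold lower at the other, so neither Krt8 nor Krt18 reached the 5-fold limit. Krt19 (chr11:100002392-100002451, minus strand), just past this limit at 5.20-fold, did not follow them in MWA. It had 978 in SVC, 192 in SPA and 1235 in MWA, so that its level in MWA was 7.74-fold above SPA and 1.49-fold above SVC. The 2 type I keratins thus moved in opposite directions from SPA to MWA, with log2 ratios of -1.17 for Krt18 and 2.95 for Krt19.

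WT1 is a zinc-finger transcription factor of the mesothelium and of progenitors in visceral fat. The brighter Wt1 probe (chr2:105013656-105013715, plus strand) had 2888 in SVC, 1578 in SPA and 1190 in MWA. Wt1 was the member that fell least from SVC to SPA, 1.87-fold at this probe. Its level in MWA was 2.06-fold below that in SVC at this probe and 3.90-fold below it at the other. The other Wt1 probe (chr2:104974028-104974087, plus strand), which the array assigns to an Ensembl transcript rather than the RefSeq mRNA, had 372, 183 and 81.0. The probes disagreed in MWA, where the log2 ratio over SPA was -0.14 at the brighter and -0.92 at the other, while in SPA over SVC they gave -0.90 and -1.05. Bnc1 encodes basonuclin 1, a zinc-finger protein of epithelial and germ cells. Its probe (chr7:89111978-89112037, minus strand) had 337 in SVC, 44.8 in SPA and 35.8 in MWA. This is a 7.67-fold decrease from SVC to SPA, after which the level stayed low, with a log2 ratio of -0.06 for MWA over SPA.

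To see how unusual these decreases were, the members were set against all genes on the arrays. Among 22808 genes well above background in SPA or SVC, a 5-fold or larger decrease in SPA was seen in 80 (0.351%), and 7 of these were members. At least 2-fold lower were 3.24% of the genes and 9 of the 10 members. In the other direction, a 5-fold increase in SPA was reached by 0.320% of the genes and a 2-fold increase by 3.89%, with 0 members in either count. Over the 20822 genes measured on both arrays, SPA over SVC had a median of 0.05 on the log2 scale, against -2.57 for the members. Counted from the lowest ratio, Lrrn4 was at rank 14, Bnc1 18, Upk3b 19, Gpm6a 31, Msln 34, Upk1b 37, Krt19 59, Krt8 101, Krt18 119 and Wt1 784. The members are known markers of 1 cell type and were chosen with earlier results of these data known, so these ranks describe the arrays and test nothing.

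In the comparison of MWA with SPA, an increase of 5-fold or more in MWA was found for 5.47% of 24101 genes and for 5 of the 10 members. A decrease of that size was found for 3.97% of all genes and 0 members. At the 2-fold limit, 15.7% of all genes and the same 5 members were higher, and 18.0% of all genes and 1 member, Krt18, were lower. The members that rose were at ranks 497 (Upk3b), 515 (Gpm6a), 589 (Msln), 598 (Krt19) and 765 (Lrrn4) from the highest of 20777 genes measured on both arrays. The other 5 members spanned log2 ratios of -1.17 to -0.03, against a median of -0.08 over all these genes.

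MWA and SVC were then compared directly. Of 23596 genes, 3.96% had a level in MWA that was 5-fold or more below SVC, among them 4 members, Krt18 (9.04-fold), Bnc1 (7.99-fold), Upk1b (6.0-fold) and Krt8 (5.88-fold). At least 2-fold lower were 18.0% of all genes and 5 members, the fifth being Wt1. By contrast, 5.72% of the genes rose 5-fold or more from SVC to MWA and 17.2% rose 2-fold or more, with 0 members in either. The largest rise of a member over SVC was the 1.49-fold of Krt19. No member lay between the 1.30-fold decrease of Lrrn4 and the 2.06-fold decrease of Wt1.

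**Figure D2:**
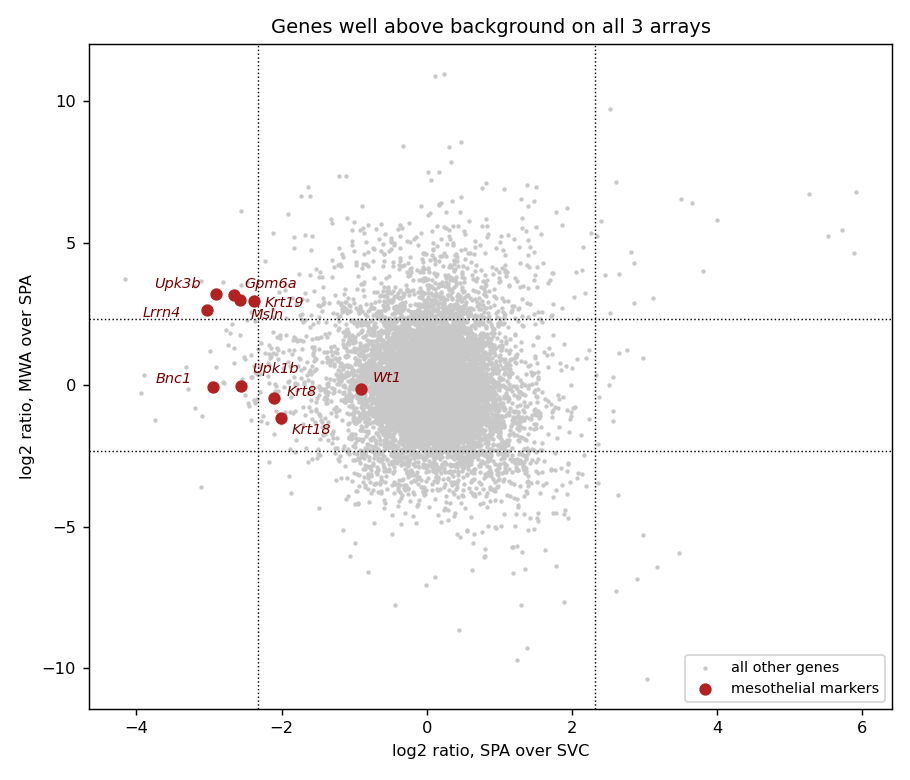
Log2 ratio of SPA over SVC (horizontal) against log2 ratio of MWA over SPA (vertical) for 19971 genes well above background on all 3 arrays, with the members in red and dotted lines at 5-fold. Msln, Upk3b, Krt19, Gpm6a and Lrrn4 lie in the upper left, and Bnc1, Upk1b, Krt8 and Krt18 lie further down on the left, with Wt1 nearest to the bulk of genes. Both axes use the SPA array, so an error in SPA moves a gene along both.

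Among the members, Msln and Gpm6a had the most similar pair of ratios, with a distance of 0.20 between them on the log2 scale. Krt19 lay 0.20 from Msln, Upk3b 0.26 from Gpm6a and Lrrn4 0.56 from Msln. Bnc1 and Upk1b were nearest to each other, at 0.38, and Wt1 was 1.24 from the closest member. The median pair of the 10 members (SPA over SVC -2.57, MWA over SPA 1.31) falls between the 2 sets and describes none of them. Its second value lies in the gap between the 2 sets, so it moves far when any member is left out. It was -0.03 without spots of outlying local background, where Upk3b has no value in MWA. With the normexp background correction described further on it was 0.77. The genes nearest to the pair therefore hold for the main setting only. Of all other genes measured on 3 arrays, Pilrb1 was closest to this median pair, at a distance of 0.09, followed by Igfbp2, which encodes an IGF binding protein, at 0.21, and Dlk1, a progenitor marker, at 0.24. Npy1r, 2210407C18Rik, Cyp2s1, Cgn, Pard6b, Col4a6 and a probe that the array names only by a genomic region completed the 10 nearest, at distances up to 0.42. Cgn encodes cingulin of tight junctions and Pard6b a protein of epithelial polarity. With 3 arrays this is a likeness of 2 numbers, and nothing follows from it about these genes.

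Another 14 genes of the mesothelium were read on the arrays, and 13 of them were well above background in SVC. Calb2, which encodes calretinin, was the exception and was not well above background on any array. From SVC to SPA, 9 of the 13 were lower and 4 were higher, with a median log2 ratio of -0.83. The decrease was at least 5-fold in Crb2, an apical polarity gene, which fell 9.97-fold from 427 to 43.7. It was also at least 5-fold in Aldh1a2, an enzyme of retinoic acid synthesis, which fell 7.78-fold from 2703 to 355, and in Krt7, a type II keratin, which fell 5.07-fold from 972 to 196. These 3 genes stayed low in MWA, with 56.5, 313 and 115, as Krt8 and Bnc1 did. Nkain4 dipped in SPA, with 509 in SVC, 149 in SPA and 888 in MWA, a 3.48-fold decrease and a 7.15-fold increase. The list did not move as a whole, because Slpi, a secreted protease inhibitor, was 2.13-fold higher in SPA over SVC and then fell 7.13-fold to MWA. Pdpn, which encodes podoplanin, was likewise 1.42-fold higher in SPA and 12.9-fold lower in MWA. Cldn15 (1.28-fold) and Rspo1 (1.26-fold) were also higher in SPA than in SVC. Slpi and Pdpn are also expressed by other cells than mesothelium, and so are keratins such as Krt7. In MWA over SPA, 9 of the 13 were higher and 4 lower, 1 and 2 of them by at least 5-fold. In MWA over SVC, 5 were higher, none by 5-fold, and 8 were lower, 4 by at least 5-fold.

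Of 14 relatives of the members by gene family (Krt7 is also in the list above), 9 were well above background on the SVC array and 10 on each of the others. List medians include bounds for genes below background on 1 of the arrays compared. The uroplakin genes Upk2 and Upk3a were not well above background on any array, nor was Mslnl, whereas Upk1a, the partner of UPK2 in the urothelium, was measured on all 3, with signals of 126, 167 and 144. Bnc2 fell 1.99-fold from SVC to SPA and rose 2.85-fold from SPA to MWA, where the log2 ratio of Bnc1 was -0.06. Krt20 fell 4.58-fold from SVC to SPA and Krt14 4.15-fold, whereas Krt5, a basal keratin that pairs with keratin 14, had a log2 ratio of 0.38. Of the 10 relatives with a ratio of SPA over SVC 7 were lower and 3 higher, with a median of -0.98. The median of MWA over SPA was -0.18 over 11 relatives and that of MWA over SVC -0.48 over 10.

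Of 8 transcription factors of the coelomic and serosal lining, 7 were well above background in SVC and SPA. From SVC to SPA 6 of the 7 were lower and 0 changed by 5-fold, with a median log2 ratio of -1.05. Tcf21 was 4.08-fold, Gata4 3.75-fold, Osr1 3.54-fold and Gata6 2.07-fold lower, so all 4 fell further than Wt1. Tcf21 and Osr1 were higher again in MWA than in SPA, by 3.15-fold and 2.36-fold, whereas Gata4 was not well above background in MWA. The median of these factors was -0.44 in MWA over SPA and -1.40 in MWA over SVC, where all 7 were lower.

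Of 10 genes of the mesothelial-to-mesenchymal transition 7 were lower and 3 higher in SPA, 0 by 5-fold, and the median log2 ratio was -0.43. Vim, which encodes vimentin, had 0.11, Zeb1 0.01 and Snai1 -0.41. In MWA over SPA 3 were at least 5-fold lower, including Cdh2 (6.30-fold) and Snai1 (5.45-fold), with a median of -0.62, and the median of MWA over SVC was -0.73. Of 9 epithelial junction genes, the 7 that could be read all fell short of their SVC level in SPA, 0 by 5-fold, and their median was -1.14. Cldn3 was 2.89-fold lower in SPA, and Cdh1, which encodes E-cadherin, 2.21-fold lower. Epcam was well above background in SVC alone, so that its decrease was at least 2.60-fold. This epithelial list had a median of -0.70 in MWA over SPA and -1.64 in MWA over SVC. Of 8 genes of the epididymal epithelium, a neighbouring epithelium with simple keratins, only Rnase10 was well above background in SVC and SPA, with a log2 ratio of -0.29. Lcn9 was the only other one in MWA, and the defining genes Lcn5, Lcn8, Crisp1, Cst11, Defb21 and Adam7 were not well above background on any array.

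**Figure D3:**
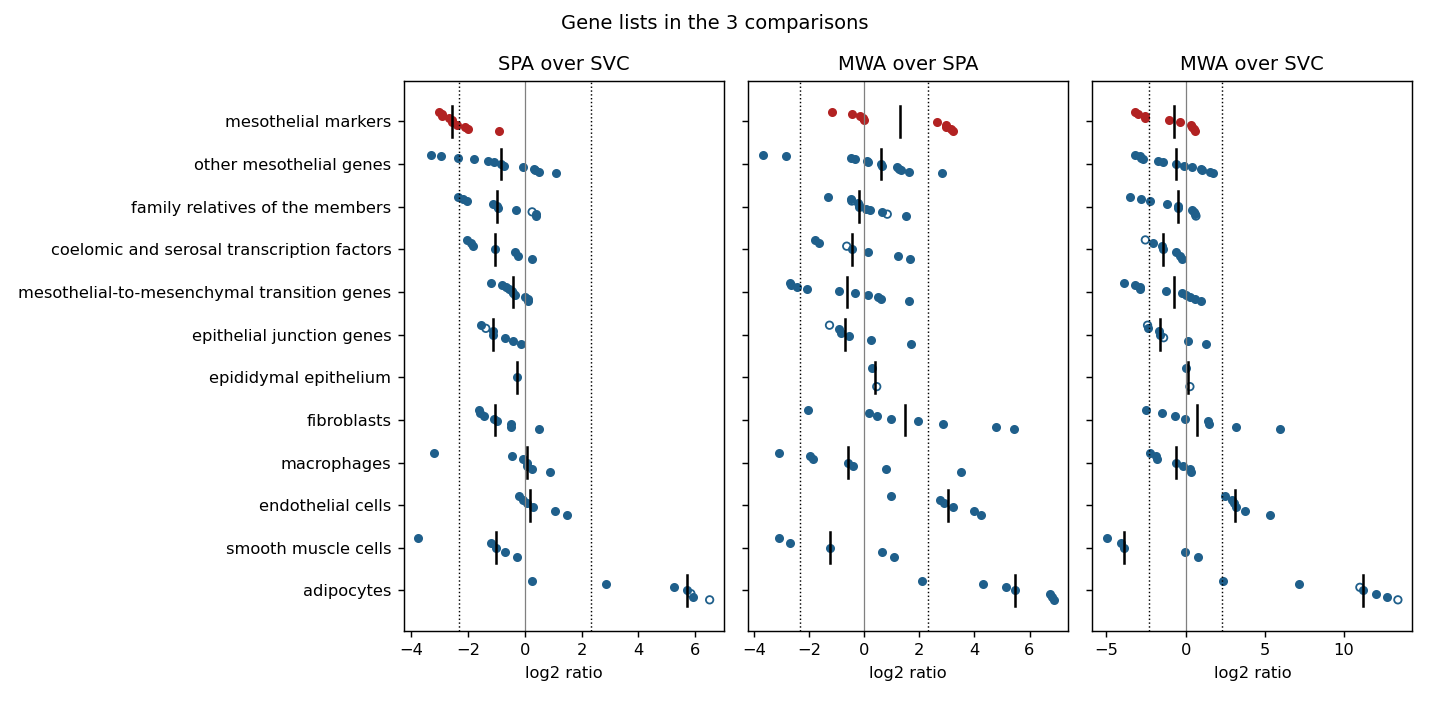
Log2 ratios of the genes of each list in the 3 comparisons. Filled points were measured on both arrays, open points are bounds, black bars are list medians and dotted lines mark 5-fold. In SPA over SVC the members (red) have the lowest median of the 12 lists, at -2.57, and the adipocyte list the highest, at 5.72.

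Markers of other cell types also moved between the fractions. From SVC to SPA 6 of 7 adipocyte genes were at least 5-fold higher, and Adipoq and Plin1 were not well above background in SVC. The fibroblast genes had a median log2 ratio of -1.04, with 7 of 8 lower and 0 by 5-fold. The smooth muscle genes had -1.01, with all 5 lower and Cnn1 13.5-fold lower. The macrophage genes had 0.06, with C1qa 9.12-fold lower, and the endothelial genes 0.18. From SPA to MWA 6 of 7 adipocyte genes and 5 of 6 endothelial genes were at least 5-fold higher, with medians of 5.47 and 3.05. The fibroblast genes had a median of 1.46, the macrophage genes -0.58 and the smooth muscle genes -1.23. Of the macrophage genes 2 were higher and 5 lower in MWA than in SPA. C1qa rose 11.3-fold and ended 1.24-fold above its SVC level. Col3a1 of the fibroblast list fell 2.70-fold from SVC to SPA and rose 7.32-fold from SPA to MWA. A dip in SPA was thus not limited to the mesothelial markers. In MWA over SVC the medians were 11.2 for adipocyte, 3.1 for endothelial, 0.71 for fibroblast, -0.63 for macrophage and -3.91 for smooth muscle genes. All listed fibroblast, macrophage, endothelial and smooth muscle genes were well above background on all 3 arrays. The part of these cells and of culture in the levels of the mesothelial markers was not tested.

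The size of the decrease depends on how the background is treated. The normexp background correction was run with an offset of 50 added to every signal, which draws low signals together. In SPA the processed signals of Gpm6a (23.0), Lrrn4 (36.6) and Bnc1 (44.8) were smaller than this offset. With this correction all 10 members were still lower in SPA than in SVC, but only Msln and Upk1b by at least 5-fold. Their log2 ratios were then -2.42 each, the lowest of the 10. The 5 genes that no longer reached 5-fold were Upk3b (-2.28), Krt19 (-2.03), Bnc1 (-1.85), Lrrn4 (-1.79) and Gpm6a (-1.24). Lrrn4 and Bnc1, which had the lowest ratios of the members under the main setting, were thus among the 4 with the smallest decrease. From SPA to MWA, Msln (2.84), Upk3b (2.59) and Krt19 (2.54) stayed above 5-fold under this correction and Gpm6a (1.62) and Lrrn4 (1.5) did not. From SVC to MWA, Bnc1, at -1.80, was the only one of the 4 members to fall below 5-fold. The local background was not marked as outlying for any member spot in SVC or SPA. Within 16 rows and 8 columns of the member spots, 3.06% to 17.2% of the spots too dim in SVC passed the background limit in SPA, against 9.77% over the whole array, with the highest share near the first Krt8 probe.

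**Figure D4:**
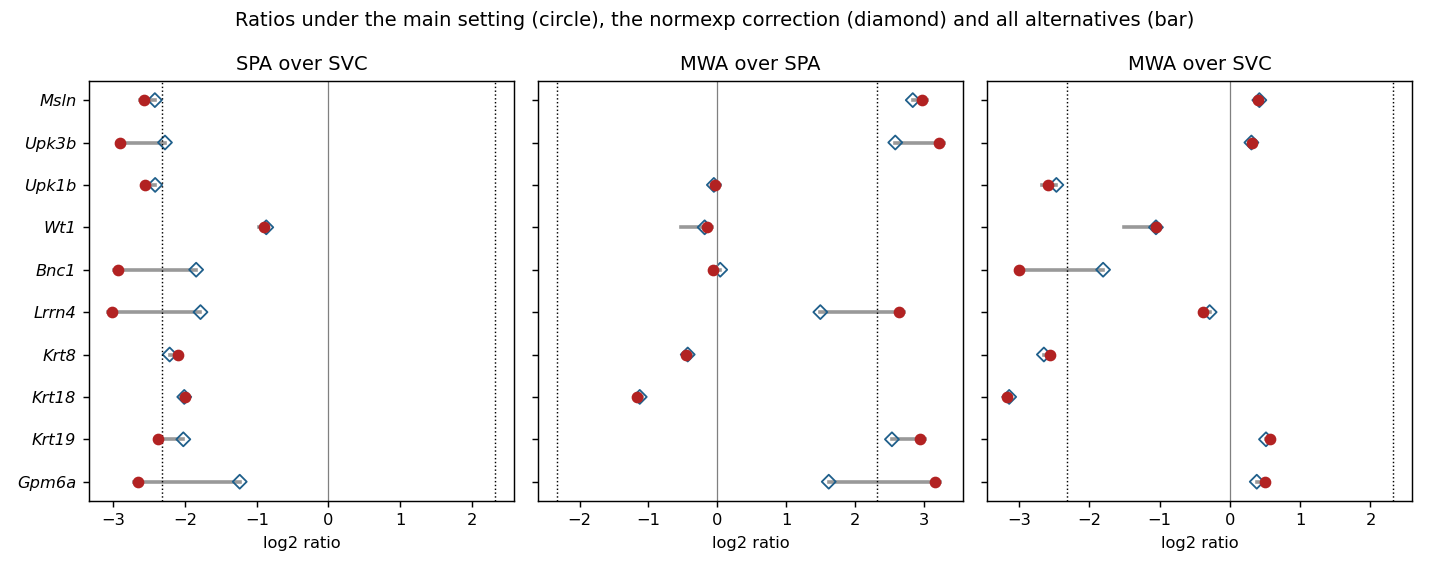
Log2 ratio of each member in the 3 comparisons under the main setting (red circles) and with the normexp background correction (open diamonds), with grey bars for the range over all settings and dotted lines at 5-fold. With this correction Bnc1, Lrrn4 and Gpm6a shift most in SPA over SVC, and Msln, Upk1b, Wt1, Krt8 and Krt18 shift little there. Gpm6a and Lrrn4 shift most in MWA over SPA, and Bnc1 in MWA over SVC.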

How the data were processed

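Gene expression was measured in 1 Agilent single-colour array each of SVC, SPA and MWA. The authors deposited the intensity of each spot as processed with Agilent Feature Extraction 10.7.3.1, background-subtracted and detrended within the array. They also deposited a ratio of this signal to 1 constant per array, which departs from that by a relative 1.37e-06 at most. Samples were grouped by their source names.

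From there, the log2 signal was scaled to the 75th percentile of the array, control and outlier spots were left out and spots of a probe averaged. A gene was read at its brightest probe. A probe not well above background entered as a bound. The 5-fold limit is that of the study, and 2-fold was an alternative. Processed signals at the limit of detection were 13.9 in SVC, 12.5 in SPA and 10.3 in MWA. With 1 array per fraction no test was run, and precision is limited by the number of arrays. Other genes were named from 11 lists, or as the 10 nearest in their pair of ratios. Members and lists were chosen with earlier results of these data known. Symbols follow RefSeq accessions where these matched. The reading of ratios was checked on simulated data. Python 3.11.15, numpy 2.4.6, pandas 2.3.3, scipy 1.17.1, matplotlib 3.10.9, R 4.3.3 and limma 3.58.1 were used. Muc16 was also listed among the other genes of the mesothelium, but no usable probe of that name was found on the arrays.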

Additional observations from a re-analysis of the deposited data

How the results depend on the processing

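The counts of members were recomputed under 9 alternatives and their ratios and medians under 8 of these (7 for Upk3b in MWA), but the other gene lists were not. Of the 30 member ratios, 28 kept their sign under each. The exceptions were Upk1b and Bnc1 in MWA over SPA, which lay between -0.09 and 0.05 under all settings. With the normexp background correction, the number of members at least 5-fold lower in SPA than in SVC was 2 in place of 7, and the number that rose at least 5-fold from SPA to MWA was 3 in place of 5. This correction added an offset of 50 to every signal, and the share of that offset in the change was not tested. With a 2-fold limit, 1 member was lower in MWA than in SPA in place of 0. Without spots of outlying local background, 4 members rose at least 5-fold from SPA to MWA, because Upk3b has no value in MWA, and the members' median of MWA over SPA was -0.03 in place of 1.31. This count and the others, 51 in number, stayed within 1.5 times those reported. The median ratio of all genes stayed within 0.1 of 0 on the log2 scale under every setting. No paired analysis was possible because each fraction has 1 array, and no replicate could be left out.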
